A study of Saccharomyces cerevisiae with 12 samples.

Results

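Spacers between divergent coding genes are the stretches that hold the promoters of a pair of neighbours transcribed away from each other. They were taken as the gaps between neighbouring nuclear coding genes of the RefSeq R64 table whose left gene is on the minus strand and whose right gene is on the plus strand, read as C or W in the systematic name. Spacers within 20 kb of a chromosome end, or within 250 bp of a tRNA gene or centromere, were left out. This gave 1379 divergent spacers of 5369 spacers of every orientation, beside 2582 tandem and 1408 convergent ones. A spacer counts as occupied in a list when the summit of a peak, the base where the authors' peak caller placed its maximum, lies inside it.

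The lists come from chromatin immunoprecipitation of Myc-tagged Scc2, 3 cultures with 1 mM auxin and 3 without. They are 6 of the 12 samples of the series, the other 6 being total chromatin. Every culture, with or without auxin, was W303 of mating type MATa and carried the alleles SCC2-13MYC::NAT, MED14-AID*-6FLAG::HYG and ura3-1::ADH1-OsTIR1(pMK200,URA3). The plant F-box protein OsTIR1 was thus expressed from the ADH1 promoter in every culture, and auxin lets it mark the degron on Med14 for degradation. The protocols in the labels give a G1 arrest of 1.5 hours with alpha-factor, 1.5 more hours in it after auxin was added, and 2 hours in nocodazole to reach a mitotic arrest. Fixation was in 1% formaldehyde for 30 minutes, and S. pombe cells with Myc-tagged Mis4 were spiked in; whether the peak calls used them is not given in the sources. The protocol text, auxin included, is repeated for every sample, so the group without auxin rests on its title and treatment label. Auxin itself and Med14 loss cannot be told apart in this design, and neither untagged cells nor cells lacking the degron are among the lists analysed.

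Scc2, with Scc4, loads the ring-shaped cohesin complex onto chromosomes. Mediator, whose scaffold is Med14, bridges transcription factors bound upstream of a gene and RNA polymerase II at its promoter. In budding yeast a divergent spacer usually holds a nucleosome-depleted region where factors for both genes bind, whereas a tandem spacer holds 1 promoter and 1 terminator and a convergent spacer holds only terminators. The peak lists place Scc2 relative to these elements, and the question followed here is where summits lay in divergent spacers with and without auxin.

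The nuclear peaks numbered 940, 1265 and 1510 in the lists with auxin and 2050, 2046 and 1438 in the lists without. The median fold enrichment that the authors' peak caller gave was 3.92, 2.82 and 2.56 with auxin and 1.68, 1.65 and 2.53 without. The sequencing depth is unknown, and an empty spacer means that no peak was called there, whatever the amount of Scc2. Each list had a peak within 250 bp of all 16 centromeres.

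More divergent spacers held a Scc2 summit with auxin than without, although the lists with auxin were mostly shorter. Summits lay in 86, 138 and 187 divergent spacers with auxin, against 32, 31 and 50 without auxin. All lists with auxin stood above all lists without it. The share was 9.93 ± 3.66% with auxin and 2.73 ± 0.775% without (SD, n = 3 each), a difference of 7.20 percentage points and 3.64-fold (exact two-sided permutation test, p = 0.1, adjusted 0.133). An exact test of 3 lists against 3 cannot give a p below 0.1, so none of the 12 values tested here could pass 0.05, and adjustment is by Benjamini-Hochberg over these 12.

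The lists with auxin mostly had fewer peaks, though the numbers overlapped between groups. Their median folds were all above those of the lists without. With the 940 most significant nuclear peaks taken from each list, 86, 106 and 140 divergent spacers were occupied with auxin, against 19, 23 and 36 without. The third lists of both groups were alike in both measures, with 1510 peaks and a median fold of 2.56 with auxin and 1438 peaks and 2.53 without. In this pair 187 divergent spacers were occupied with auxin and 50 without. As a share of all nuclear summits, those in divergent spacers made up 11.2 ± 1.48% with auxin and 2.57 ± 1.15% without (SD, n = 3 each; exact permutation p = 0.1, adjusted 0.133). Summits in coding sequence made up 48.0 ± 3.16% with auxin and 73.3 ± 7.86% without (SD, n = 3 each).

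Of the 86 spacers in the first list with auxin, 85 recurred in another list with auxin. All 3 shared 80 divergent spacers, which is 93.0% of those in the first list, 58.0% of those in the second and 42.8% of those in the third. The lists without auxin shared 21, or 65.6%, 67.7% and 42.0% of those in each. Over the 6 lists, 208 divergent spacers held a summit at least once and 1171 never did.

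**Figure D1:**
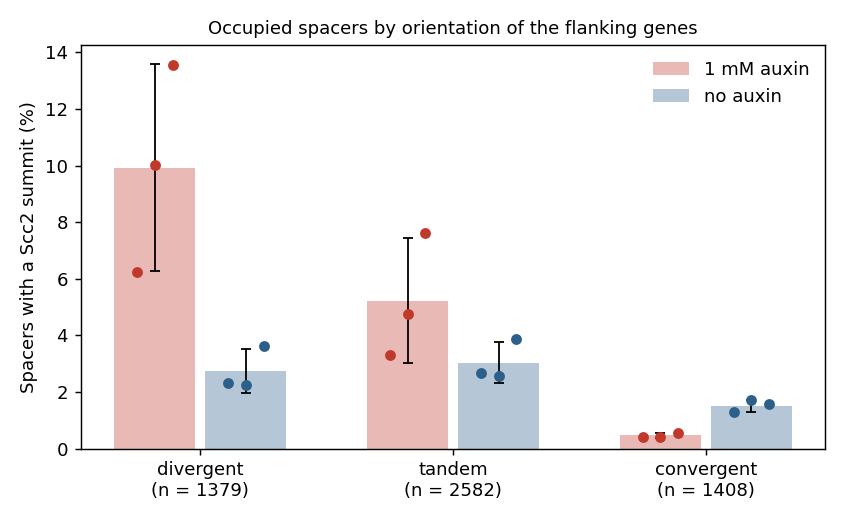
Share of spacers with a Scc2 summit (y axis, percent) by orientation of the flanking genes, with 1 mM auxin (red, left of each pair) and without auxin (blue). Points are the 3 lists of a group, bars their means and error bars the SD. Divergent spacers reached 9.93% with auxin and 2.73% without, whereas convergent spacers were at 0.473% and 1.52%.

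The difference between auxin and no auxin depended on orientation. Tandem spacers were occupied at 5.23 ± 2.21% with auxin and 3.03 ± 0.729% without (SD, n = 3 each), and the groups overlapped. Convergent spacers went the other way, with 6, 6 and 8 of 1408 occupied with auxin and 18, 24 and 22 without. Of all summits in spacers, 49.5 ± 1.97% lay in divergent ones with auxin and 30.4 ± 1.51% without (SD, n = 3 each), while divergent spacers held 32.8% of spacer bases. The share per base without auxin was thus close to that of spacers at large, and with auxin it was above it.

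Divergent spacers are longer than the others, with a median of 484 bp against 383 bp for tandem and 216.5 bp for convergent spacers, and a longer spacer offers more bases for a summit. The shares were therefore set to the lengths of divergent spacers in 4 length classes. The standardised share of divergent over tandem spacers was 1.44, 1.62 and 1.36 in the lists with auxin, against 0.653, 0.684 and 0.731 without. By this weighted share, divergent spacers were thus above tandem ones in each list with auxin and below them in each list without. The ratio averaged 1.47 ± 0.132 with auxin and 0.689 ± 0.0392 without (SD, n = 3 each; exact permutation p = 0.1, adjusted 0.133). It does not hold for every class or measure. From 200 to under 400 bp, the first list with auxin had 0.642% of divergent and 0.691% of tandem spacers occupied. At 800 bp and over without auxin, divergent spacers held 9.38, 7.45 and 9.93 summits per 100 kb, against 7.49, 6.79 and 9.60 in tandem ones. Over convergent spacers the ratio was 6.12 ± 1.53 with auxin and 0.509 ± 0.113 without (SD, n = 3 each; exact permutation p = 0.1, adjusted 0.133). The ratio over convergent spacers rests on 6 to 8 occupied ones per list with auxin. Of these, 3, 3 and 6 were among the 53 convergent spacers of 800 bp and over, and none was in the class from 400 bp.

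Occupancy climbed with spacer length in both groups. Of the 108 divergent spacers under 200 bp, 1 was occupied, in the second list with auxin, and none in the lists without. Of the 467 from 200 to under 400 bp, 1.36 ± 0.618% were occupied with auxin and 0.357 ± 0.124% without (SD, n = 3 each). Of the 526 from 400 to under 800 bp, 10.3 ± 5.06% were occupied with auxin and 2.03 ± 1.27% without (SD, n = 3 each). The 278 spacers of 800 bp and over reached 27.5 ± 7.75% with auxin and 9.11 ± 1.62% without (SD, n = 3 each). The groups did not overlap in the 3 longer classes (exact permutation p = 0.1 in each, adjusted 0.133), and in the shortest the exact p was 1.

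Summits per base climbed with length as well. With auxin, summits per 100 kb of divergent spacer were 4.75 ± 2.16 in the class from 200 bp, 17.4 ± 8.60 in the class from 400 bp and 22.2 ± 5.80 in the longest (SD, n = 3). Without auxin they were 1.25 ± 0.433, 3.45 ± 2.15 and 8.92 ± 1.30 in the same classes (SD, n = 3). The ratio of mean densities, auxin over no auxin, was 5.06 in the class from 400 bp and 2.48 in the longest. Among tandem spacers of 800 bp and over, 17.9 ± 7.49% were occupied with auxin and 10.5 ± 1.98% without (SD, n = 3 each), and there the groups overlapped.

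The occupied spacers themselves were shorter with auxin. Their median length was 955, 875 and 816 bp in the lists with auxin, against 1257.5, 1009 and 972 bp without. The 2 sets of medians did not overlap (difference -197.5 bp, exact permutation p = 0.1, adjusted 0.133). The difference was -108.5 bp without the first list lacking auxin, and -107.5 bp when any overlapping peak counted. Without spacers holding RNA genes it was -188.7 bp, and the sets of medians were no longer fully apart (exact permutation p = 0.2). The 80 spacers occupied in all 3 lists with auxin had a median length of 955 bp, the 53 in 2 lists 797 bp, the 65 in 1 list 696 bp and the 1181 in no such list 429 bp.

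**Figure D2:**
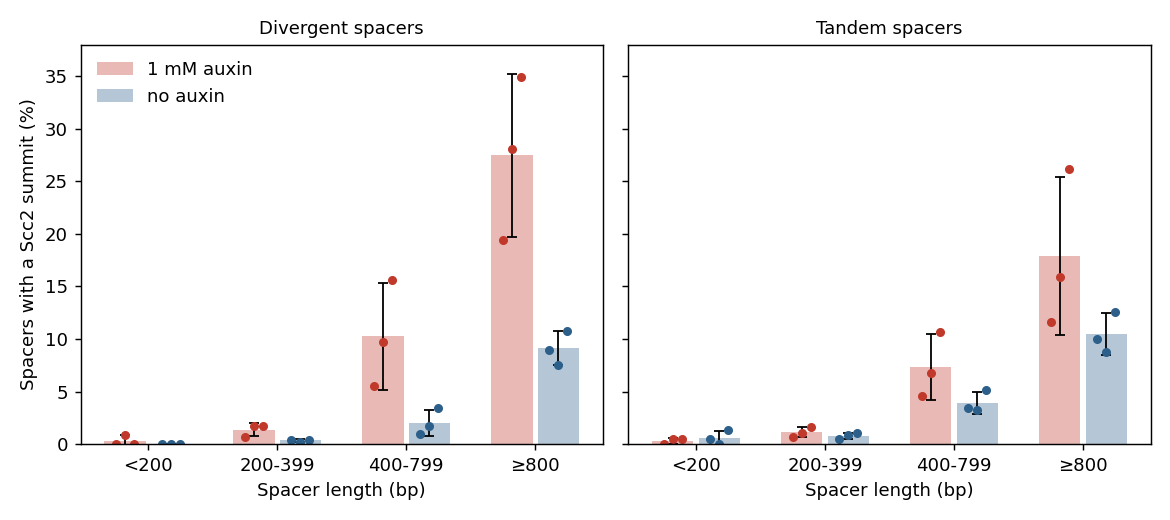
Share of spacers with a Scc2 summit (y axis, percent) by spacer length class (x axis, bp), for divergent spacers on the left and tandem spacers on the right, with 1 mM auxin (red) and without auxin (blue). Points are lists, bars means of 3 lists and error bars the SD. At 800 bp and over, divergent spacers were occupied at 27.5% with auxin and 9.11% without.

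Around the coding starts of divergent pairs, the spacer held a larger share of the summits with auxin than without. Counting the spacer and the first 500 bp of both coding sequences, the spacer held 53.5, 54.7 and 56.8% of summits with auxin, against 16.1, 17.5 and 28.7% without. The groups stood far apart, at 55.0 ± 1.69% with auxin and 20.8 ± 6.89% without (SD, n = 3 each; exact permutation p = 0.1, adjusted 0.133). The spacers held 91, 141 and 191 summits with auxin, against 41, 37 and 56 without. The first 500 bp of coding sequence held 79, 117 and 145 with auxin, against 213, 174 and 139 without, and these overlapped between groups. Over the first 1000 bp, coding sequence held more than the spacers in each list, at 110, 191 and 222 summits with auxin and 425, 406 and 281 without. With a reach of 250 bp the difference in the share was 22.6 percentage points, against 34.2 with 500 bp.

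Per 100 kb of available sequence, summits 300 to 400 bp upstream of the nearer coding start numbered 45.5 ± 13.2 with auxin and 12.0 ± 5.21 without (SD, n = 3 each). In the first 100 bp upstream both groups were low, at 2.35 ± 1.50 with auxin and 0.124 ± 0.214 without (SD, n = 3 each). Summits 400 to 500 bp into the coding sequence numbered 5.97 ± 1.88 with auxin and 24.0 ± 5.75 without (SD, n = 3 each). The first 100 bp of coding sequence held few in either group, at 3.63 ± 1.58 with auxin and 2.78 ± 0.554 without (SD, n = 3 each). Within 600 bp upstream and 1000 bp downstream, the coding start was thus a low point in both groups. The densest step lay upstream with auxin and in the coding sequence without. Up to 200 bp from the start the coding side was the higher with auxin too, at 3.63 against 2.35 and then 10.6 against 8.79. Upstream steps end at the middle of the spacer, so the farther ones come from longer spacers alone. The first held 269.6 kb and that from 300 bp 77.6 kb, so upstream distance is mixed with spacer length. Farther upstream few bases were available, and the steps from 600 to 1000 bp are not drawn. The step from 700 to 800 bp, with 13.4 kb, held 8, 11 and 11 summits with auxin and 4, 1 and 5 without, or 74.6 ± 12.9 per 100 kb with auxin and 24.9 ± 15.5 without (SD, n = 3 each), which is denser than any step drawn. The step from 800 to 900 bp went the other way, with 2, 1 and 1 summits with auxin and 2, 4 and 2 without, or 14.0 ± 6.05 per 100 kb with auxin and 28.0 ± 12.1 without (SD, n = 3 each).

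**Figure D3:**
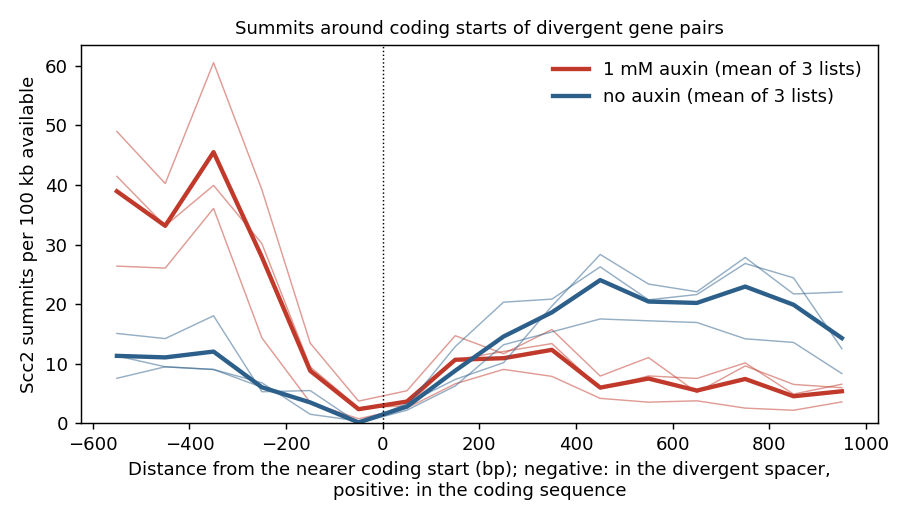
Scc2 summits per 100 kb of available sequence (y axis) by distance from the nearer coding start of divergent pairs (x axis, bp, in steps of 100 bp), with negative values in the spacer and positive values in the coding sequence. Thin lines are lists and thick lines the mean of 3 lists, with 1 mM auxin in red and without auxin in blue. Upstream steps are drawn to 600 bp. Over the range drawn, the mean with auxin is highest upstream, at 45.5, and the mean without auxin is highest in the coding sequence, at 24.0.

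Within the spacer, summits kept to the middle in both groups. The middle 1 of 5 equal parts held 41.8 ± 4.69% of spacer summits with auxin and 39.0 ± 3.86% without (SD, n = 3 each). The part beside the minus-strand gene held 4.89 ± 2.55% with auxin and 3.43 ± 2.98% without, and the part beside the plus-strand gene 6.23 ± 0.669% with auxin and 13.5 ± 3.24% without (SD, n = 3 each). Divided into 3 equal parts, the middle one held 66.8 ± 4.99% with auxin and 56.5 ± 11.5% without, and the groups overlapped (SD, n = 3 each; exact permutation p = 0.3, adjusted 0.327). The median distance to the nearer coding start was 348, 317 and 320 bp with auxin, against 406, 333 and 366.5 bp without, and again the groups overlapped (exact permutation p = 0.2, adjusted 0.24). Neither of these tested measures separated the groups. The difference in the median distance was -40.2 bp, and it was -1.5 bp with lists of equal length. It was -85.2 bp without spacers holding RNA genes and -57.9 bp without the second list lacking auxin, and in both the groups no longer overlapped. The share in the middle of 3 parts did not overlap between groups with lists of equal length, where the difference was 12.5 percentage points, with no exclusion near tRNA genes, where it was 8.53, or without the third list lacking auxin, where it was 16.9. Of the other measures of position, which were not tested, some overlapped and some did not. The middle 1 of 5 parts held 47.3, 39.0 and 39.3% with auxin, against 39.0, 35.1 and 42.9% without, which overlap. The part beside the plus-strand gene did not overlap, at 5.49, 6.38 and 6.81% with auxin, against 17.1, 10.8 and 12.5% without. There the lists without auxin had only 7, 4 and 7 summits. Summits nearer to the minus-strand gene did not overlap either, at 54.9, 50.4 and 47.6% with auxin, against 43.9, 37.8 and 41.1% without. All these shares are over summits, so a spacer with several counts more than once. With auxin 2, 3 and 4 spacers held 2 or more summits, against 5, 3 and 2 without.

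Most of these peaks were narrow enough to stay between the genes. With auxin, 80.3 ± 4.66% of the peaks with a summit in a divergent spacer lay wholly inside it, and without auxin 79.6 ± 6.85% did (SD, n = 3 each). Peaks that reached into both coding sequences made up 3.45 ± 3.40% with auxin and 3.21 ± 1.93% without (SD, n = 3 each). In fold enrichment, 10 of 91, 11 of 141 and 15 of 191 such summits with auxin ranked in their list's top 10%. Without auxin 1 of 41, 0 of 37 and 1 of 56 did. By definition about 10% of all peaks rank there, so the lists with auxin were near that share and those without below it. The median summit, by contrast, stood on average at percentile 50.9 of its list with auxin and 55.7 without.

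**Figure D4:**
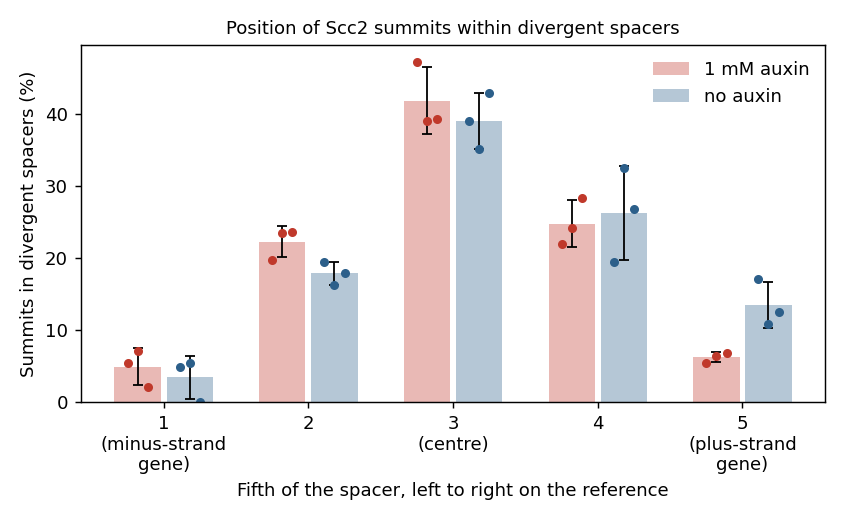
Share of the summits in divergent spacers (y axis, percent) that lay in each of 5 equal parts of the spacer (x axis, from the minus-strand gene on the left to the plus-strand gene on the right), with 1 mM auxin (red) and without auxin (blue). Points are lists, bars means of 3 lists and error bars the SD. The centre held 41.8% of summits with auxin and 39.0% without.

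Called spacer by spacer, the change was mostly one of gain. Spacers with a summit in all 3 lists with auxin and in none without are called gained, those with the reverse pattern lost, and those with a summit in all 6 lists kept. There were 46 gained divergent spacers, or 3.34%, against 1.43% of spacers of every orientation. There were 5 lost divergent spacers, or 0.363%, against 0.41% of all spacers, and 11 kept ones, or 0.798%, against 0.596%. Lost and kept shares were thus near the background, and the gained share was above it. Of the 2582 tandem spacers 31 were gained, and of the 1408 convergent ones 0. Requiring only 2 of the lists with auxin, and still none without, gave 87 divergent spacers, or 6.31%, against 2.79% of all spacers, and with the reverse pattern 7, or 0.508%, against 0.745%. With a summit in all 3 lists with auxin and in at most 1 without there were 65, or 4.71%, against 2.12%. At 800 bp and over the gained share was 10.8% of divergent and 5.18% of tandem spacers. Without the first list with auxin, which had the fewest peaks, 83 divergent spacers were gained, and without the third list lacking auxin 64 were.

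The summits of gained spacers were placed alike in the lists with auxin. In the 46, the highest summits of the 3 lists lay within a median of 36.5 bp of each other, and within 50 bp in 33 spacers. In the same lists the kept spacers had a median of 23 bp, and 9 of 11 were within 50 bp. The trait was thus not particular to gained spacers, and both calls require a summit in all 3 of these lists. Summits of the gained spacers lay a median of 342.5 bp from the nearer coding start, with a range of 38 to 1032 bp. The shortest gained spacer, YPI1-RPN11, measured 268 bp and the longest, FIT1-STL1, 3104 bp; both were picked out after their lengths were seen.

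The gained spacer with the highest median fold lay between HHT2 and HHF2, which encode histones H3 and H4 (chromosome XIV, 576051 to 576726). Its fold enrichment was 11.6, 10.7 and 9.54 in the lists with auxin, which is percentile 94.0, 98.4 and 99.0 of each list, and no list without auxin had a summit there. It lay 309, 351 and 322 bp from the HHT2 start, near the centre of the 676 bp spacer. In the first and second lists without auxin the nearest summit was 657 and 658 bp away, inside HHT2, and in the remaining one it was 6440 bp away. The other H3 and H4 pair, HHF1-HHT1, was gained as well (chromosome II, 255685 to 256330). Its fold was 6.14, 5.84 and 6.99 with auxin. The summits with auxin lay 291, 281 and 275 bp from the HHF1 start, while the nearest summits without auxin lay in HHF1 in the first list and in HHT1 in the others, 477 to 622 bp away.

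Of the H2A and H2B pairs, HTB1-HTA1 was gained, with a fold of 3.08, 3.19 and 3.23 with auxin, and HTA2-HTB2 was kept. At HTA2-HTB2 (chromosome II, 235793 to 236491) the summits lay 342, 364 and 354 bp from the HTA2 start with auxin, against 400, 364 and 358 bp without. Their fold ranked at percentile 85.0, 90.1 and 94.6 with auxin and 58.3, 74.5 and 66.8 without. Between them these pairs encode all the core histones of yeast. The GAL10-GAL1 spacer, the galactose-induced divergent promoter, was also gained (chromosome II, 278353 to 279020). Its summits lay 269, 279 and 279 bp from the GAL10 start with auxin. That spacer touches an annotated antisense RNA gene, YNCB0008W.

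Other gained spacers with a high fold flank genes of varied function. SPT8-ERG3 (chromosome XII, 253081 to 253860) lies between a subunit gene of the SAGA coactivator and a sterol desaturase gene. Its summits with auxin lay within 16 bp of each other, with a fold of 9.16, 7.77 and 8.35. Without auxin the nearest summits were inside SPT8 in the first list and inside ERG3 in the others, 911 to 1255 bp away. ENV9-SRL1 (chromosome XV, 796794 to 797675) lies beside the mannoprotein gene SRL1, and all 3 lists without auxin had their nearest summit inside SRL1, 954 to 1034 bp away. YLR108C-AHP1 (chromosome XII, 368125 to 368780) lies beside the peroxiredoxin gene AHP1, and without auxin the nearest summit of each list was inside CCW12, 1423 to 1463 bp away. The next 3 were ASK1-SFK1, with the Dam1 complex gene ASK1, PMP2-GTT3 and YGR050C-FMP48.

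**Figure D5:**
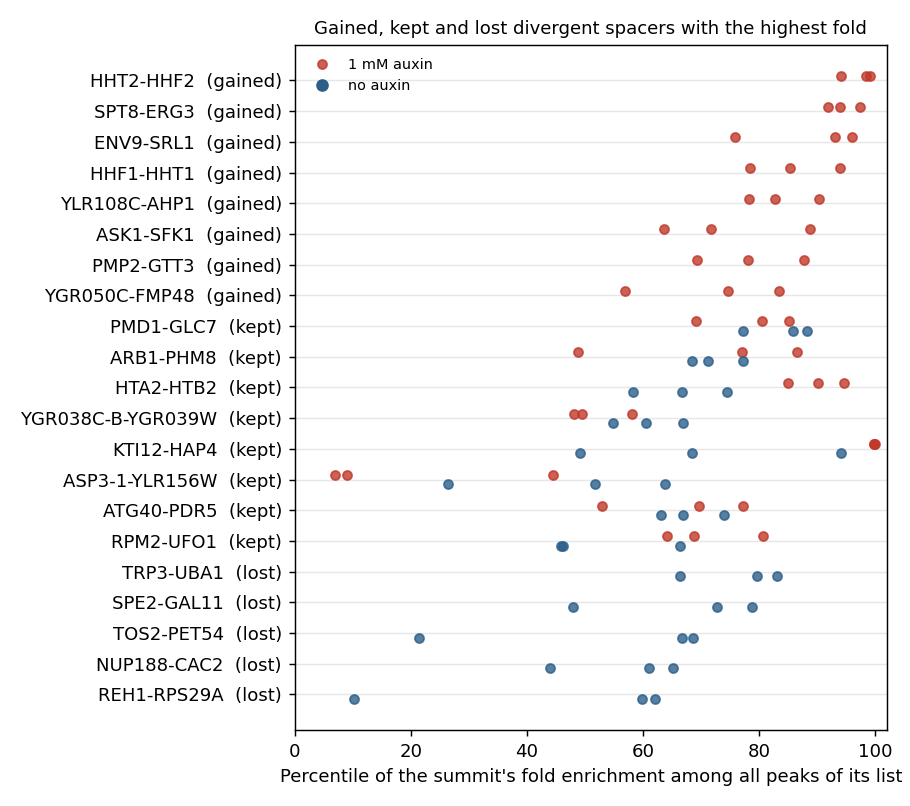
Percentile of the summit's fold enrichment among all peaks of its own list (x axis) for the gained, kept and lost divergent spacers (rows), up to 8 of each by median fold, taken over lists with auxin for gained and lists without for kept and lost. Red points are lists with 1 mM auxin and blue points lists without auxin, and a missing point means no summit in the spacer. HHT2-HHF2 and SPT8-ERG3 stand at percentile 91.8 or above in each list with auxin, whereas KTI12-HAP4 spans 49.1 to 94.1 without auxin.

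Summits in the flanking coding sequences were set beside the calls. A summit inside a flanking coding sequence was found in at least 2 lists with auxin for 13 of the 46, and in at least 2 lists without auxin for 31, or 67.4%. Among the 1171 divergent spacers with no summit in any list, 146 had such summits with auxin and 299, or 25.5%, without. Among kept spacers 2 of 11 had them with auxin and 10, or 90.9%, without, and among lost spacers 1 of 5 with auxin and 3 without, so the trait was not particular to gained spacers. The gained spacers had a median length of 920.5 bp, and the part of length in this contrast was not tested. In 36 of the 46 no peak without auxin touched the spacer by even 1 base, and in 12 there was neither such a peak nor a summit in a flanking coding sequence. Among the 1171 empty spacers the same held for 1131 and 758. In gained spacers the nearest summit without auxin lay a median of 1386 bp from the summit with auxin. Gained spacers were called for holding no summit without auxin, so these values partly follow from the call.

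Ribosomal protein genes flank 71 of the divergent spacers. Of these, 11, 28 and 41 were occupied with auxin, against 3, 3 and 3 without. That is 37.6 ± 21.2% with auxin and 4.23% in each list without (SD, n = 3), beside 8.44 ± 2.71% with auxin and 2.65 ± 0.817% without for the other 1308 (SD, n = 3 each). The spread among lists with auxin was wide, and the order of the lists was that of their number of peaks. Spacers at ribosomal protein genes are long, with a median of 780 bp. Between 400 and 800 bp, 4, 11 and 22 of the 35 ribosomal protein spacers were occupied with auxin and none without. In the same class, 25, 40 and 60 of 491 others were occupied with auxin and 5, 9 and 18 without. At 800 bp and over, 7, 17 and 19 of 30 ribosomal protein spacers were occupied with auxin and 3, 3 and 3 without, beside 47, 61 and 78 of 248 others with auxin and 22, 18 and 27 without. In that class ribosomal protein spacers and the others thus lay close together in the first list with auxin and in the lists without.

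Where only 1 of the flanks was a ribosomal protein gene, the summit was nearer to that gene in 6 of 10, 18 of 25 and 30 of 37 spacers in the lists with auxin. The median distance to its coding start was 409.5, 298 and 261 bp, against 519, 616 and 483 bp to the start of the partner. Of the 71 ribosomal protein spacers 9 were gained, or 12.7%, against 2.83% of the other 1308. At 800 bp and over 6 of 30 were gained, or 20.0%, against 9.68% of 248 others, and between 400 and 800 bp 3 of 35, or 8.57%, against 2.44% of 491 others. The 9 are named here after their values were seen. They were ROX3-RPL32, RPL19A-AAC3, RPL24B-GPC1, RTA1-RPS0A, RPL42B-CHS7, VMA6-RPL6B, RPL18B-TOS6, RPS15-RPP2A and MOT1-RPS9A. RPS15-RPP2A has a ribosomal protein gene on both sides. In 4 of the other 8 the summit was nearer to the ribosomal protein gene in all 3 lists, in 3 nearer to the partner in all 3, and at RPL24B-GPC1 the lists differed. At VMA6-RPL6B the summits lay 300, 301 and 300 bp from the RPL6B start, and at RPL42B-CHS7 219, 265 and 239 bp from the RPL42B start. The 3 nearer to the partner were RPL18B-TOS6, at 397, 385 and 388 bp from the TOS6 start, ROX3-RPL32, at 395, 407 and 407 bp from the ROX3 start, and MOT1-RPS9A, at 349, 333 and 322 bp from the MOT1 start.

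Other functional groups had few divergent spacers each, so their counts are given as descriptions beside the 9.93% of all divergent spacers occupied with auxin and 2.73% without. Those shares are not matched for spacer length, which differed between the functional groups. Of 6 spacers at histone genes, 4, 4 and 5 were occupied with auxin and 1 in each list without. Of 8 at drug and weak acid efflux genes, 2, 3 and 4 were occupied with auxin and 1 in each list without, or 37.5% and 12.5% on average. Their median length was 1170 bp, and of all divergent spacers of 800 bp and over 27.5% were occupied with auxin and 9.11% without. Of 7 at chaperone genes, 2, 3 and 3 were occupied with auxin and 0, 2 and 2 without, which overlap. Of 11 at amino acid biosynthesis genes, 1, 3 and 4 were occupied with auxin and 2, 2 and 4 without, and these overlap. Of 8 at glycolysis and fermentation genes, 1, 1 and 3 were occupied with auxin and none without, or 20.8% on average with auxin. The median length there was 1000.5 bp, and 27.5% of all divergent spacers of 800 bp and over were occupied with auxin. Of 8 at translation factor genes 2, 3 and 2 were occupied with auxin and 0, 1 and 1 without. Of 10 at G1/S genes, 2, 1 and 2 were occupied with auxin and none without. None of the 7 spacers at ribosome biogenesis genes, the 8 at genes of the CLB2 cluster or the 5 at cohesin and condensin genes held a summit in any list. These are short, with median lengths of 362, 475.5 and 362 bp, beside the 1.36% of divergent spacers from 200 bp and the 10.3% from 400 bp that were occupied with auxin.

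Among the 14 spacers at Mediator genes, 1 was occupied in each list of either group, but it was not the same one. With auxin it was the gained ROX3-RPL32 spacer, whose RPL32 side is counted above, and without auxin it was the lost SPE2-GAL11. Of 7 spacers at plasma membrane and cell wall genes, 0, 1 and 1 were occupied with auxin and none without. Of the 2 spacers at hexose transport and galactose genes, GAL10-GAL1 alone held a summit in these lists. The rule on fold without auxin also named IME1-RPL43B, SIS1-LST8, NOC4-ASN1 and SSA1-EFB1. That fold is not on 1 scale across lists, and IME1-RPL43B had a single summit without auxin, at percentile 21.7 of its list. SSA1-EFB1, between an Hsp70 and a translation elongation factor gene, was occupied in 3 lists with auxin and in 2 without, with summits 335, 356 and 346 bp from the SSA1 start with auxin and 320 and 358 bp without.

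Kept spacers include 2 with known RNA polymerase III loci that the tRNA exclusion does not reach. PMD1-GLC7 (chromosome V, 430450 to 432494) holds SNR52, a snoRNA gene transcribed by RNA polymerase III, and its summits lay within 15 bp of each other with auxin and within 27 bp without. RPM2-UFO1 holds ZOD1, and its summits lay 484, 507 and 528 bp from the RPM2 start with auxin, against 1241, 1256 and 526 bp without. ARB1-PHM8 (chromosome V, 225200 to 225888) lies beside the gene of the ribosome biogenesis ATPase Arb1 and holds no annotated RNA gene. Its summits lay 380, 390 and 389 bp from the ARB1 start with auxin, against 381, 385 and 384 bp without. Those without auxin thus fell within the range of those with auxin.

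KTI12-HAP4, upstream of the gene for the activator subunit Hap4 of respiratory genes, stood at the top of the lists with auxin. Its fold was 25.9, 15.0 and 11.8 with auxin, against 1.67, 1.93 and 5.37 without, on no common scale across lists. Within its own list the summit ranked at percentile 99.8, 99.8 and 100 with auxin, against 49.1, 68.5 and 94.1 without. It lay 1614, 1607 and 1612 bp from the KTI12 start with auxin, against 1430, 1478 and 1627 bp without. ATG40-PDR5, upstream of a multidrug transporter gene, kept its summit 1059, 1116 and 1077 bp from the ATG40 start with auxin, against 1088, 1056 and 1072 bp without. Of the remaining named ones, ASP3-1-YLR156W belongs to a repeated array whose copies share reads, so its peaks are uncertain, and in YGR038C-B-YGR039W, the longest divergent spacer at 7420 bp, the summits of the lists without auxin were 2739 bp apart.

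In 20 spacers with a summit in at least 2 lists of each group, the group medians lay a median of 33.25 bp apart. Lists of one group differed by a median of 23.0 bp with auxin and 34.5 bp without, and 13 of the 20 spacers had group medians within 100 bp. In 9 spacers the distance between groups was above that within either group, among them SFT1-RPL14A at 727.5 bp, with 2 lists of each group. The 9 also include ASP3-1-YLR156W, whose peaks are uncertain, ASP3-2-YLR157W-D and the longest spacer, YGR038C-B-YGR039W. Some passed by little, as KTI12-HAP4 did at 134 bp between groups and 131.3 bp among lists without auxin. The median shift of 33.25 bp was thus above the spread with auxin and below that without. It is a distance between group medians, whereas the spreads are mean distances between single lists, so the measures are unlike. Without the third list lacking auxin the median shift was 149.5 bp, and without the second 85.0 bp.

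Of the 5 lost spacers, 4 hold a small RNA gene. TRP3-UBA1 holds SNR64, SPE2-GAL11 holds SNR81, NUP188-CAC2 holds SNR85, and TOS2-PET54 holds both forms of SNR7, the U5 spliceosomal RNA. The fifth was REH1-RPS29A, beside a small ribosomal subunit protein gene, where the summits without auxin lay 191, 207 and 124 bp from the RPS29A start. In the 5, the summits without auxin lay within a median of 90 bp of each other, and within 50 bp in 1 spacer. At TOS2-PET54 they were 432 bp apart. Their fold ranked at percentile 62.0, 59.8 and 10.2 of the lists without auxin at REH1-RPS29A, and at 79.6, 83.0 and 66.3 at TRP3-UBA1. At NUP188-CAC2 (chromosome XIII, 67550 to 68293) the summits without auxin lay 233, 229 and 235 bp from the NUP188 start. The nearest summit with auxin was 2601, 2620 and 952 bp away, the last of these inside CAC2. Of the 11 divergent spacers with a snoRNA gene, 1, 4 and 5 were occupied with auxin, against 9, 9 and 7 without. Among the 1358 spacers that hold or touch no annotated non-coding gene the shares were 9.52 ± 3.50% with auxin and 1.99 ± 0.830% without (SD, n = 3 each).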

How the data were processed

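The submitters' processing notes name Bowtie2 (version 2.4.2), MACS2 (version 2.1.1.20160309) and the build sacCer3. What each was used for, with which cutoff and against which control, is not given in the sources used here. The authors deposited 1 list of narrow peaks for each of the 6 immunoprecipitates; the 6 total chromatin samples have none. Each peak has a fold enrichment, a ratio deposited by the authors. It was used to rank summits within a list and, as a median over lists, to choose the named spacers. Its values are also printed for lists and for single spacers, but they are on no common scale across lists. The −log10 p and −log10 q values deposited by the authors were used only to shorten or filter lists. The score deposited by the authors was not used. Depth is unknown.

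A summit was placed at the deposited start plus the summit offset. Overlapping coding genes were joined before gaps were taken. Gene positions came from RefSeq R64, the sequence of sacCer3 (6002 nuclear coding and 275 tRNA genes), while the strain is W303. Centromere positions and chromosome lengths were entered from general knowledge. No centromere overlapped a gene and no peak passed a chromosome end.

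Groups and replicate numbers came from the titles. The labels describe a culture for each replicate, with 3 precipitations pooled per culture. Groups were compared on 1 value per list, by exact permutation (two-sided, 20 assignments) (Python 3.11.15, numpy 2.4.6, pandas 2.3.3), and the script was tested on lists with known gains and losses. Spacers are not replicates, so none of the counts over spacers has a test.

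The divergent spacers, the gene classes and the rules were chosen with earlier results of these data known. Named spacers are up to 8 gained, kept and lost ones by median fold, the histone and GAL1-GAL10 pairs, and up to 2 per class by fold without auxin. All but 2 of the listed class genes were found in the table. Alternatives were any overlapping peak, 2 stricter q thresholds, lists of equal length, other distances to tRNA genes, spacers without RNA genes, lists left out and a replicate block. Correlations of deviations between same-numbered lists are given in the closing section.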

Additional observations from a re-analysis of the deposited data

How the results depend on the processing

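No tested difference changed sign under any alternative run, except that the one for spacers under 200 bp came to 0 in several; none could pass 0.05. The difference in the share of divergent spacers occupied (auxin minus no auxin) ran from 4.88 percentage points at −log10 q of at least 10 to 9.05 without the first list with auxin. Same-numbered lists did not deviate together (r = 0.0203, -0.00965 and -0.109 over 492 spacers); with the replicate block the difference stayed at 7.20 with an exact sign-flip p of 0.25, the smallest possible. The divergent over tandem difference in ratio was 0.362 with no exclusion near tRNA genes, and the divergent over convergent one 0.635. Without length standardisation they were 1.03 and 18.8. The divergent over convergent one was 2.73 with any overlapping peak and 43.9 without spacers holding RNA genes. With any overlapping peak, 15 divergent spacers were lost and 28 kept. At −log10 q of at least 10, 30 were gained. With lists of equal length 6 were kept, with no exclusion near tRNA genes 94 were kept, and without spacers holding RNA genes 1 was lost. With a list left out, gained spacers numbered 46 to 83, and the summit shift was 19.0 to 149.5 bp. The cause of these moves was not tested. Unknown depth limits what an empty spacer means.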

Other observations

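Divergent spacers outside the rule behaved differently in number. Of the 88 inner divergent spacers within 250 bp of a tRNA gene or centromere, 84, 86 and 87 held a summit with auxin, against 85, 84 and 86 without. Of the 60 within 20 kb of a chromosome end and away from tRNA genes, 6, 10 and 15 held one with auxin, against 10, 5 and 8 without, and these overlapped.

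Summits in divergent spacers were nearer to the minus-strand gene in 50 of 91, 71 of 141 and 91 of 191 cases with auxin, and in 18 of 41, 14 of 37 and 23 of 56 without.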
